A study of Homo sapiens with 8 samples.

Results

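H1 human embryonic stem cells in which both Dicer alleles carry S1344L were compared with H1 cells without functional Dicer, to see which 5p and 3p arms of miRNA hairpins the mutant enzyme still left above the level of the null. The comparison took in all 594 mature miRNAs measured, of which 227 are named as 5p arms, 300 as 3p arms and 67 without an arm, in 4 of the 8 small RNA libraries of the series. H1 is an established pluripotent cell line. The genotypes are labelled Dicer-S1344L homozygous, Dicer-null, Dicer-S1344L hemizygous and wild-type, and the S1344L lines were made by CRISPR-Cas9 editing. Each genotype had 2 libraries, labelled as biologically independent RNA samples, and no drug, time course or further allele is named. The labels do not say how many clones stand behind a genotype, and the hemizygous and wild-type libraries are used here only to set levels beside the comparison and to estimate the spread.

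Dicer cuts the hairpin of a pre-miRNA near its loop with a pair of catalytic domains, the RNase IIIa domain on the strand that gives the 3p arm and the RNase IIIb domain on the strand that gives the 5p arm. S1344 lies in the RNase IIIa domain, and changes at this residue recur in tumours. The arm that is kept by Argonaute is called the guide and the other the passenger. A guide finds its targets mainly through its seed, bases 2 to 8 of the mature miRNA. A few miRNAs do not need Dicer, the best known being miR-451a, which Argonaute itself cuts.

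The sequences that carry the comparison are 5p arms with an identical or near-identical seed that stood at different heights above the null. RefSeq (GRCh38.p14) held a sequence for 533 of the 594 miRNAs and for 203 of the 227 5p arms. In each line the seed is in capitals.
miR-15a-5p: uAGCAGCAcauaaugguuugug
miR-15b-5p: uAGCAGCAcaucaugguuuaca
miR-16-5p: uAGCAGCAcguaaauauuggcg
miR-195-5p: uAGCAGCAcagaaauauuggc
miR-30c-5p: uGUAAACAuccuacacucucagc
miR-30e-5p: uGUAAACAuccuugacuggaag
miR-125a-5p: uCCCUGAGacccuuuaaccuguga
miR-125b-5p: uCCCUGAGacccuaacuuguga
miR-520a-5p: cUCCAGAGggaaguacuuucu
miR-525-5p: cUCCAGAGggaugcacuuucu
miR-302a-5p: aCUUAAACguggauguacuugcu
miR-302b-5p: aCUUUAACauggaagugcuuuc
The hairpins of 3 such pairs show how much of each molecule the arms take up, with both mature arms in capitals and the loop between them in lower case.
MIR15A: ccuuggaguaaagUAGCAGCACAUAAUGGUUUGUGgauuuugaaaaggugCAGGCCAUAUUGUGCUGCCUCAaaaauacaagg
MIR15B: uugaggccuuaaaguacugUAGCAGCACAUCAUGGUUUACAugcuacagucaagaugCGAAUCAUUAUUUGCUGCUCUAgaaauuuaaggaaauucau
MIR302A: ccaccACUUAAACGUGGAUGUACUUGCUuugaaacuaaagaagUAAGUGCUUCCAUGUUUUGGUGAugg
MIR302B: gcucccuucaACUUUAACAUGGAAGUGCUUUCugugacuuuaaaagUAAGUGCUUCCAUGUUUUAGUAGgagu
MIR520A: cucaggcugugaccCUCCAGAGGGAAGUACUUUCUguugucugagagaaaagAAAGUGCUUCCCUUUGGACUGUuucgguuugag
MIR525: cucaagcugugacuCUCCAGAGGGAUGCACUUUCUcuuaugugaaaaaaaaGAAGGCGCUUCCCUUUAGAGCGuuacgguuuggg
MIR15A lies at chr13:50049119-50049201 on the minus strand, in an exon of the non-coding gene DLEU2, and MIR15B at chr3:160404588-160404685 on the plus strand, in an intron of SMC4. MIR302A (chr4:112648183-112648251) and MIR302B (chr4:112648485-112648557) lie on the minus strand, opposite an intron of LARP7. On their own strand, MIR302A lies in an intron and MIR302B in an exon of the non-coding gene AC106864.1. MIR520A (chr19:53690881-53690965) and MIR525 (chr19:53697533-53697617) lie on the plus strand in the large primate cluster of chromosome 19, and the annotation places no other gene over them. The annotated loops held 15, 16, 15, 14, 17 and 16 bases, in the order of the lines. The files hold 1 value per mature name, so where the enzyme cut was not measured.

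The 594 miRNAs held 2289926 and 1814568 reads in the homozygous libraries and 165317 and 137655 in the null, against 2680973 and 2725756 in the wild type. Values are RPM, reads scaled by a denominator that can be read back from the deposited values of each library and is not its total of miRNA reads. All miRNA reads together equalled 2.43 and 2.18 times this denominator in homozygous libraries and 0.118 and 0.183 times in null libraries. A single read was worth 0.715 and 1.33 RPM in the null libraries, and 64 and 56 miRNAs had no read there, against 1 in each homozygous library. A count of 0 allows up to 3 reads, or 2.14 and 3.99 RPM. On the log2 scale, replicate 2 minus replicate 1 had a median of 1.94 in hemizygous, 0.79 in null and -0.23 in homozygous cells, and the hemizygous pair enters the error of every test below.

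Nearly all 3p arms but only part of the 5p arms stood above the null in homozygous cells. With limma on log2(RPM + 1) at a Benjamini-Hochberg adjusted p under 0.05, 453 of 594 miRNAs were higher (76.3%) and 12 were lower (2.02%). Among 3p arms 289 of 300 were higher, 3 were lower and 8 did not pass, with a median log2 difference of 5.05. Among 5p arms 121 of 227 were higher, 4 were lower and 102 did not pass, with a median of 2.20. Of the miRNAs without an arm in the name, 43 of 67 were higher and 5 lower, and the median over all miRNAs was 4.08. Both homozygous libraries lay above both null libraries for 520 miRNAs (87.5%), among them 173 5p and 296 3p arms. When the hemizygous libraries were left out of the fit, 494 miRNAs were higher and 19 lower, and 151 5p arms were higher. Without homozygous replicate 1, 76 5p arms were higher. Differences are on the log2(RPM + 1) scale, which understates the change of low miRNAs.

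How many arms count as above the null depends on what each library is divided by. Scaled to its own miRNA reads, which asks whether an arm takes a larger share of the miRNAs in homozygous than in null cells, 233 miRNAs were higher (39.2%) and 175 lower (29.5%), and the median over all miRNAs moved from 4.08 to 0.61. On that scale 25 5p arms were higher and 136 lower, with a median of -1.60, and 191 3p arms were higher and 15 lower, with a median of 1.82. Every direction, count of arms called and percent of a wild-type level given below is on the deposited scale unless the sentence says otherwise. Which of these scales tracks the amount per cell was not tested, because the files hold no spike-in entry, and in bulk samples fewer cells of a type cannot be told apart from less RNA per cell.

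**Figure D1:**
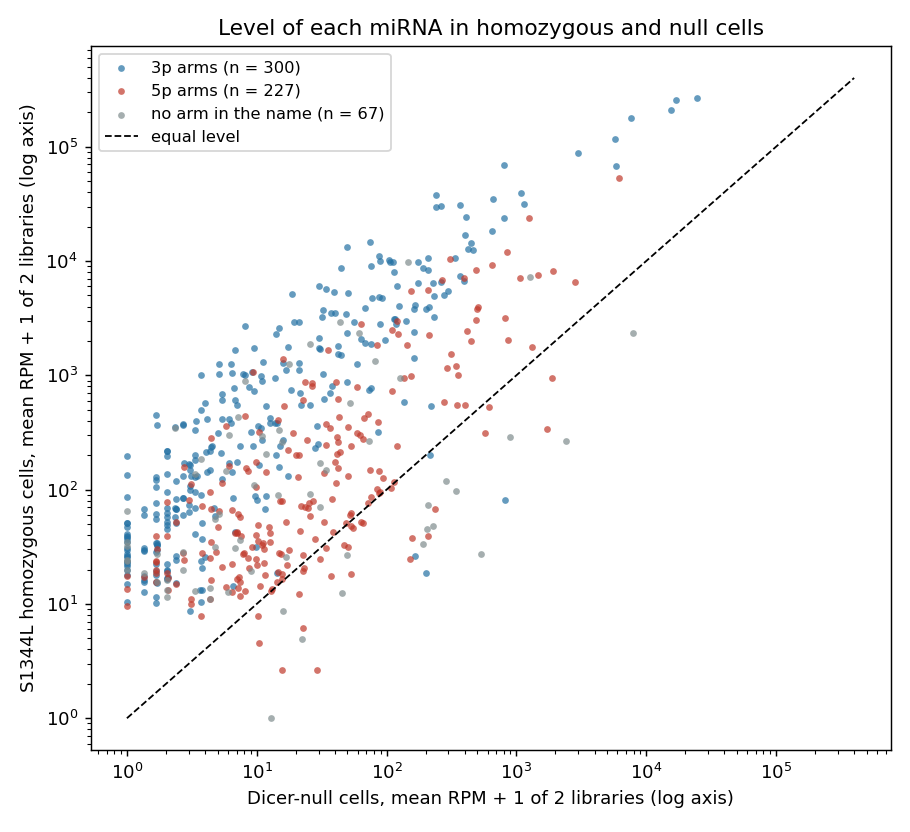
Mean level of each of the 594 miRNAs in Dicer-null cells (x) and S1344L homozygous cells (y), in RPM + 1 on log axes, each the mean of 2 libraries. Blue 3p arms lie well above the line of equal level, with a median log2 difference of 5.05, while red 5p arms spread from below the line to far above it, with a median of 2.20.

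Summed over all arms, 5p arms reached 247326 ± 26840 RPM (SD, n = 2) in homozygous cells and 36614 ± 12411 in null cells, a 6.75-fold difference. 3p arms reached 2019350 ± 142315 and 98534 ± 24138 RPM, a 20.5-fold difference. Set beside the wild-type sums, homozygous cells held 34.5% of the 5p RPM and 139% of the 3p RPM, and null cells 5.11% and 6.77%. The 5p share of all arm-named RPM, which no scaling changes, was 11.2% and 10.6% in the homozygous libraries and 25.5% and 28.2% in the null. The groups did not overlap, and the difference was -15.9 points (p = 0.333 by an exact permutation test, two-sided, the smallest p possible with 2 libraries in each group). Without the 5 most abundant miRNAs of homozygous cells the difference was -36.8 points.

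The 10 most abundant 5p arms of homozygous cells held 59.5% of their 5p RPM. The null was uneven as well, with a mean of 6203 RPM for miR-302a-5p in a 5p sum of 36614 RPM. Uneven 5p levels were therefore not particular to homozygous cells, though the share of the 10 most abundant 5p arms of the null was not computed. All 10 arms were higher than in the null, beside 53.3% of all 5p arms. They were picked by their level in homozygous cells, which favours a call of higher. miR-302a-5p, an arm of the cluster that marks pluripotent stem cells, stood at 57389 and 49297 RPM in homozygous and at 5158 and 7248 RPM in null cells (log2 difference 3.12 ± 0.76 SE, limma adjusted p = 7.36e-05). It was the highest 5p arm in both genotypes. miR-135a-5p, which acts on the Wnt pathway through APC, stood at 25292 and 22212 against 1122 and 1378 RPM (4.25 ± 0.80, limma adjusted p = 3.84e-07). miR-302c-5p stood at 12215 and 11792 against 615 and 1063 RPM (3.89 ± 0.82, limma adjusted p = 4.81e-06). The libraries of the genotypes did not overlap for any of these 3 arms.

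miR-30e-5p, whose family bears on differentiation and autophagy, showed the widest gap of the 10, with 11205 and 9484 RPM in homozygous against 241 and 369 RPM in null cells (5.11 ± 0.84, limma adjusted p = 6.22e-09). miR-33a-5p, which sits in an intron of SREBF2 and represses the cholesterol exporter ABCA1, stood at 9664 and 8889 against 410.2 and 882 RPM (3.94 ± 0.83). miR-15b-5p, a repressor of BCL2 and of cyclins, stood at 9021 and 7694 against 491 and 492 RPM (4.08 ± 0.84), and miR-512-5p of the chromosome 19 cluster at 7159 and 7124 against 329 and 463 RPM (4.19 ± 0.84). In homozygous cells these 4 arms were at 99.1%, 110%, 90.4% and 92.4% of their wild-type means.

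The remaining 3 of the 10 stood nearer to the null. miR-17-5p, the growth-promoting guide of the miR-17-92 cluster, had 9229.9 and 7285 RPM in homozygous and 1495 and 2329 RPM in null cells (2.14 ± 0.81, limma adjusted p = 0.0112). miR-21-5p, which represses PDCD4, had 8389 and 6702 against 1092 and 1834 RPM (2.40 ± 0.82, limma adjusted p = 0.00508). miR-16-5p had 7575 and 6687 against 975 and 1146 RPM (2.75 ± 0.82, limma adjusted p = 0.00132). They were at 16.4%, 32.3% and 30.6% of their wild-type means, and on the scale of each library's own miRNA reads all 3 were lower than in the null, by -1.83, -1.56 and -1.22 on the log2 scale. On that scale miR-302a-5p turned negative as well, and miR-302c-5p and miR-33a-5p did so only slightly.

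**Figure D2:**
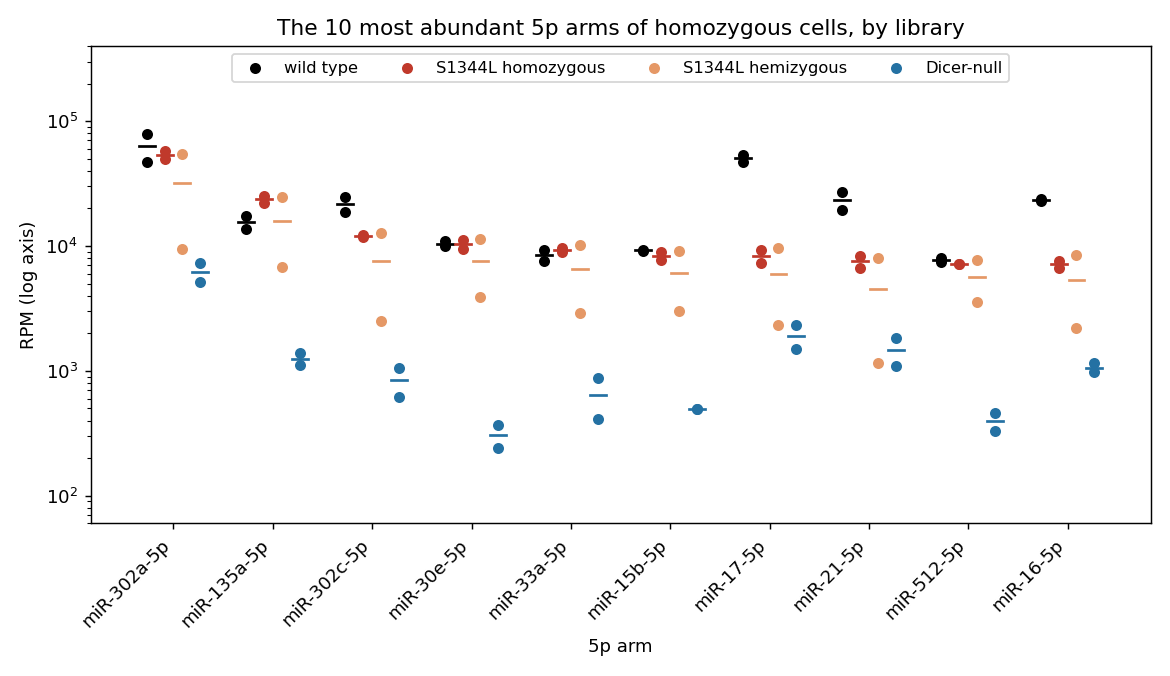
RPM of the 10 most abundant 5p arms of homozygous cells in every library, on a log axis, with short bars at the mean of 2 libraries. Homozygous points (red) lie above the null points (blue) for all 10 arms, and beside or above the wild-type points (black) for miR-135a-5p, miR-30e-5p and miR-33a-5p but well below them for miR-17-5p, miR-21-5p and miR-16-5p.

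Other 5p arms stood close to the level without Dicer. In 51 5p arms the log2 difference was within 1 of 0, against 2 of the 3p arms. miR-302b-5p, from the same cluster as miR-302a-5p, stood at 1116 and 759.8 RPM in homozygous and at 1444 and 2299.8 RPM in null cells, the null libraries being the higher (-0.98, 95% interval -2.69 to 0.72). miR-302d-5p stood at 343 and 286 against 242 and 906 RPM (-0.58), and miR-31-5p at 572 and 487 against 539 and 685 RPM (-0.20). Both pairs overlapped. A p above the threshold does not show that the levels were equal, and the intervals of these arms span several-fold.

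A further 5 of the 5p arms that did not pass were singled out after their values were seen. let-7a-5p, the differentiation guide that LIN28 holds back in stem cells, had 159.9 and 134.6 RPM in homozygous against 75 and 71.9 RPM in null cells (0.99, 95% interval -0.88 to 2.86), or 2.43% and 1.21% of its wild-type mean. miR-34a-5p, a p53 target, had 113 and 76.9 against 57.2 and 118 RPM (0.18), overlapping, and miR-125b-5p, enriched in neural cells, had 159 and 92.6 against 63.6 and 122.4 RPM (0.45), overlapping too. miR-296-5p, more abundant, had 1975 and 1571 against 965 and 1670.3 RPM (0.47). miR-20a-5p, with 6513 RPM on average the most abundant 5p arm that did not pass, had 7085 and 5941 against 2347 and 3277 RPM (1.23 ± 0.81, limma adjusted p = 0.15) without overlap. Some related arms were called higher, among them miR-34b-5p (3.46) and miR-125a-5p (4.34), but miR-34c-5p was not (0.42). On the scale of own miRNA reads the 5 arms singled out here were all called lower than in the null.

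At the other end, 21 5p arms were higher than the null under all 5 scalings tried, out of 220 such miRNAs among the 594 (37.0%). miR-769-5p was the 5p arm with the largest difference, at 1213 and 944 RPM in homozygous against 2.14 and 14.6 RPM in null cells (7.25 ± 0.96, limma adjusted p = 1.01e-12). miR-532-5p stood at 1452 and 1336 against 10.0 and 20.0 RPM (6.52 ± 0.95), and miR-671-5p at 1698 and 1663 against 17.1 and 51.9 RPM (5.76 ± 0.92). The null values of miR-769-5p rest on 3 and 11 reads. In homozygous cells these 3 arms were at 130%, 240% and 103% of their wild-type means. The others of the 21 include miR-30b-5p, miR-30d-5p and miR-30e-5p, miR-135b-5p, miR-9-5p, miR-195-5p and miR-516a-5p, and 3 of the 21 (miR-203b-5p, miR-548e-5p and miR-3913-5p) had no read in either null library and few in the homozygous.

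The balance within a hairpin is nearly free of the scaling of a library, except for arms so low that the added 1 RPM weighs on the ratio. For the 186 hairpins with both arms measured, the log2 ratio of 3p to 5p moved toward 3p in 148 (79.6%) and toward 5p in 3 (1.61%) from null to homozygous cells, by limma at an adjusted p under 0.05. The count toward 5p was 1 with 0.5 RPM added or with own miRNA reads, median-ratio or upper-quartile scaling, and 9 with 5 RPM added. Over all 186 hairpins the median shift was 3.08, or 8.44-fold. The median log2 ratio was 2.24 in homozygous and -1.32 in null cells, beside -1.31 in wild-type and 2.15 in hemizygous cells. Both arms were higher than in the null in 100 hairpins, the 3p arm alone in 81, the 5p arm alone in none, and neither in 5.

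The largest shift was in miR-365a, where the log2 ratio was 10.73 and 10.90 in homozygous and 3.39 and 0.69 in null cells (8.77 ± 0.95, limma adjusted p = 2.71e-06). Its 5p arm rests on 2 and 1 reads in the homozygous libraries. miR-339 went from -3.11 and -3.15 in null to 5.03 and 5.33 in homozygous cells (8.32 ± 0.47, limma adjusted p = 4.31e-08) and its minor arm became the major one. miR-34c, miR-15a, miR-31, miR-34a and miR-340, which also favoured 5p in the null, moved by 7.45, 6.96, 6.87, 6.65 and 6.28 and favoured 3p in both homozygous libraries. miR-130a, miR-518c and miR-331 moved by 6.62, 6.35 and 6.23, the first 2 from ratios that favoured 3p in the null as well.

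In 35 hairpins the ratio did not pass the test, and in 32 of these both arms were higher than in the null. They include miR-302a (2.20 and 2.33 in homozygous against 1.62 and 1.31 in null cells, difference 0.80, 95% interval -0.10 to 1.71), miR-302c (0.47, -0.38 to 1.31), miR-653 (0.14, -0.72 to 1.00), miR-30b (0.27, -1.03 to 1.57), miR-21 (-0.29, -1.46 to 0.88) and miR-33a (-0.60, -1.81 to 0.60). Of these 6, only miR-653 had an interval within 2-fold in either direction. The 3 hairpins that moved toward 5p were miR-145 (-2.15), miR-561 (-1.82) and miR-769 (-1.30). None of these 3 calls held under every setting: miR-561 and miR-769 were lost on the scale of own miRNA reads (-0.22 and -0.92, limma adjusted p = 0.836 and 0.124), and miR-145 without null replicate 1 (-1.21, limma adjusted p = 0.0541).

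**Figure D3:**
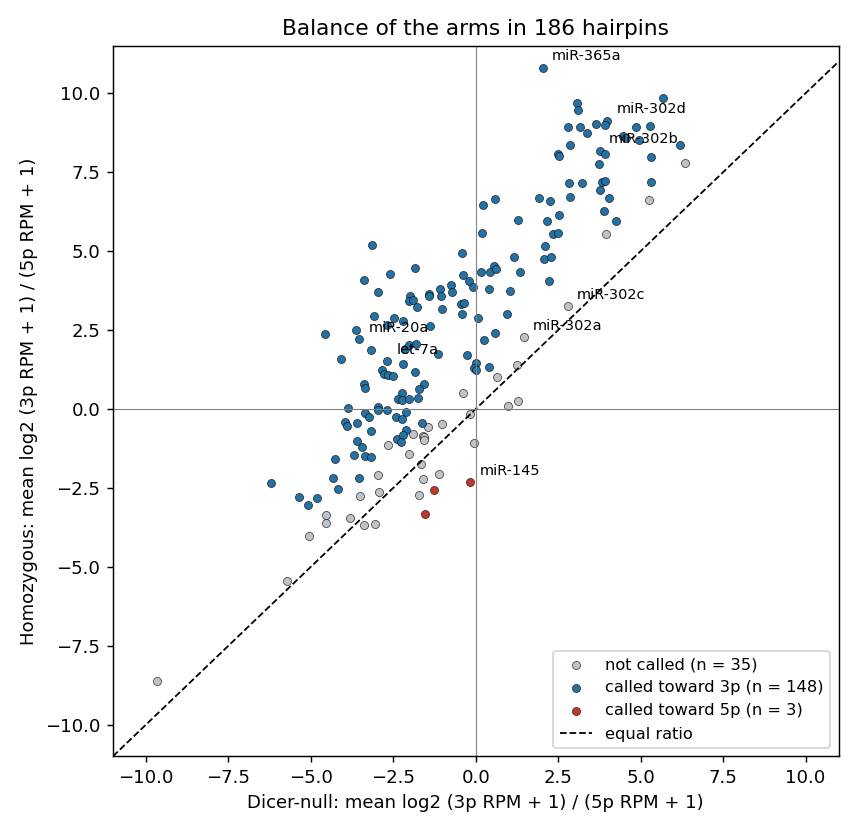
Mean log2 ratio of 3p to 5p RPM (each + 1) of 186 hairpins in null cells (x) and homozygous cells (y), where 0 means equal arms. The 148 blue hairpins called toward 3p lie above the line of equal ratio. By contrast, miR-302a and miR-302c lie close to it, apart from miR-302b and miR-302d of the same cluster. Over all 186 hairpins the median shift was 3.08.

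Grouped by the more abundant arm in wild-type cells, 5p guides were higher than the null in 78 of 115 hairpins, with a median log2 difference of 2.71, and 5p passengers in 22 of 71, with a median of 1.16. 3p guides were higher in 69 of 71 (median 5.00) and 3p passengers in 112 of 115 (median 5.74). Over all miRNAs 453 of 594 were higher.

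Arms that share a seed differed in how far they stood above the null. Among 68 5p arms in 24 seed groups, 105 pairs were compared by the ratio of their RPM within each library, so that scaling hardly enters, and 42 pairs (40.0%) in 14 groups differed in their change from null to homozygous, by limma with p adjusted over the 105 pairs. Pairs that share an arm are not separate results. Many pairs come from a single seed group of the chromosome 19 cluster, such as miR-519a-5p over miR-519c-5p. The arms of that group were at low levels and could share reads. Without homozygous replicate 1 or 2, 27 and 22 pairs passed. In the miR-15 group, whose arms repress BCL2 and cyclins, miR-15a-5p stood at 266 and 213 RPM in homozygous against 100.8 and 139.7 RPM in null cells (1.00 ± 0.93), while miR-195-5p stood at 951 and 765 against 22.2 and 29.3 RPM (5.01 ± 0.95). The ratio of miR-15a-5p to miR-195-5p fell by 4.01 on the log2 scale (SE 0.26, limma adjusted p = 0.000113). miR-15a-5p also fell against miR-15b-5p, by 3.08 (SE 0.30, limma adjusted p = 0.000408), and against miR-16-5p, by 1.75 (SE 0.22, limma adjusted p = 0.00149). miR-15a-5p and miR-15b-5p, printed above, have the same seed and differ in a few bases outside it, and were at 3.46% and 90.4% of their wild-type means. miR-16-5p is made from a locus beside MIR15A and from another beside MIR15B, and its value covers both.

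The miR-30 group split likewise. miR-30e-5p, miR-30b-5p and miR-30d-5p rose by 5.11, 5.16 and 5.60, while miR-30a-5p had 269 and 246 against 30.0 and 51.9 RPM (2.67 ± 0.97) and miR-30c-5p 1322.95 and 1079.6 against 319 and 363.3 RPM (1.81 ± 0.88, limma adjusted p = 0.0508). The ratio of miR-30c-5p to miR-30e-5p fell by 3.30 (SE 0.24, limma adjusted p = 0.000113), and that of miR-30a-5p to miR-30e-5p by 2.43 (SE 0.21, limma adjusted p = 0.000198). miR-30a and miR-30e, with nearly the same mature 5p arm, could share reads, and the sources used here do not say how such reads were assigned.

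The widest split was in a pair of the chromosome 19 cluster. miR-520a-5p stood at 2431 and 2529 RPM in homozygous against 85.0 and 133.1 RPM in null cells, and miR-525-5p at 97.4 and 103 against 45.7 and 119.8 RPM, an increase of the ratio by 4.10 (SE 0.28, limma adjusted p = 0.000113). In wild-type cells both were abundant, at 3675 and 3392 RPM and at 3959.7 and 3492 RPM. miR-125a-5p, a repressor of LIN28, stood at 2503 and 2101 against 75 and 168 RPM, and its ratio to miR-125b-5p rose by 3.89 (SE 0.30, limma adjusted p = 0.000119). The remaining 63 pairs did not pass, among them miR-135a-5p over miR-135b-5p (-0.53, 95% interval -1.11 to 0.05) and miR-302b-5p over miR-302d-5p (-0.41, -1.70 to 0.88).

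**Figure D4:**
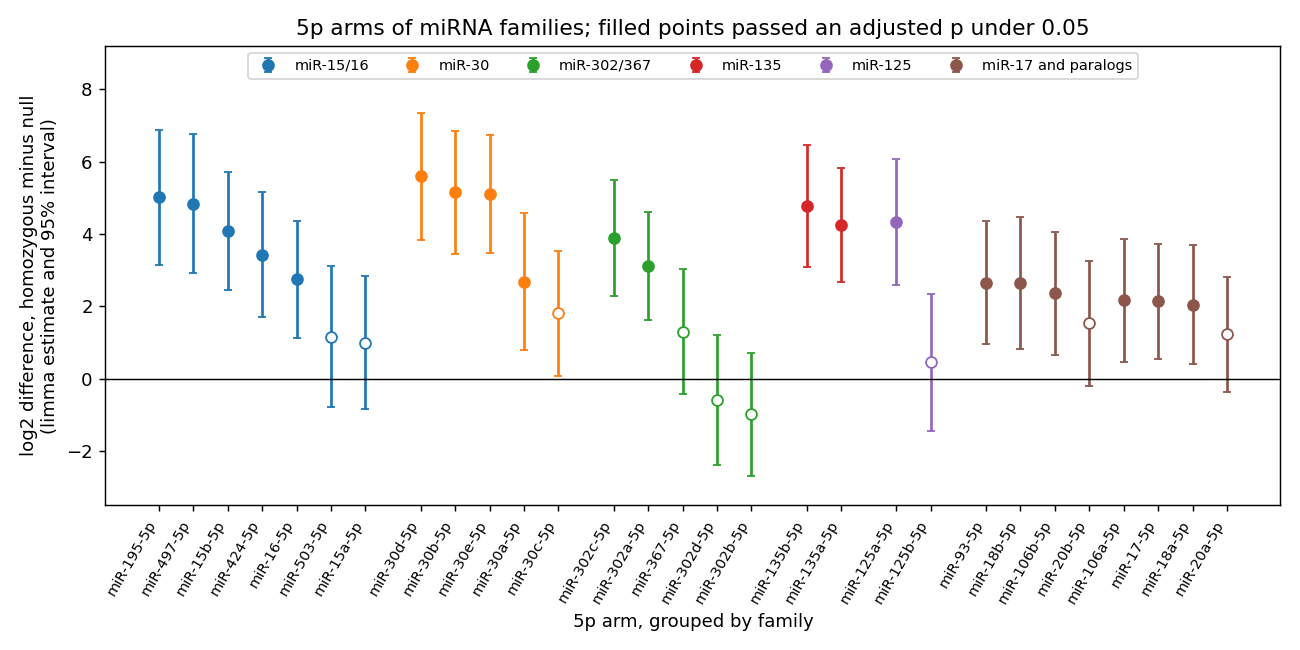
log2 difference between homozygous and null cells for 5p arms of 6 miRNA families, with limma 95% intervals, filled points having an adjusted p under 0.05. Members range from 1.00 to 5.01 in the miR-15/16 family, from 1.81 to 5.60 in the miR-30 family, from -0.98 to 3.89 in miR-302 with miR-367 and from 0.45 to 4.34 in the miR-125 pair, while the miR-17 paralogs lie between 1.23 and 2.66.

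The 3p arms of the miR-302 and miR-367 pluripotency cluster stood above the null, each by less than the median of all 3p arms. All 5 of them, which sustain the embryonic cell cycle, were higher than in the null, beside 96.3% of all 3p arms. Their median log2 difference was 3.96, against 5.05 over all 3p arms. miR-302b-3p, the most abundant miRNA of both genotypes, stood at 274735 and 260525 RPM in homozygous and at 26279.6 and 23265 RPM in null cells (3.44 ± 0.70, limma adjusted p = 2.2e-06). miR-302a-3p and miR-367-3p rose by 3.92 and 3.96, and miR-302d-3p and miR-302c-3p by 4.57 and 4.36. As shares of all miRNA reads, 2 of the 5 were higher in homozygous cells and none was lower.

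The 5p arms of the same 5 hairpins did not move together. miR-302a-5p and miR-302c-5p were higher, and miR-302b-5p, miR-302d-5p and miR-367-5p (2186 and 1898 against 615 and 1113 RPM, 1.30 ± 0.88, limma adjusted p = 0.16) did not pass. Within the hairpins, miR-302b and miR-302d moved toward 3p by 4.42 and 5.15 and miR-367 by 2.66, while miR-302a and miR-302c did not pass. Of the miR-371, miR-372 and miR-373 arms, from the other stem cell cluster, 5 of 6 were higher, beside 76.3% of all miRNAs. miR-372-3p, which speeds the passage through G1, stood at 40265 and 38843 against 467 and 1713 RPM (5.46), miR-373-3p rose by 5.82 and miR-371a-3p by 6.46. miR-371a-5p rose less, from 314 and 677 RPM in null to 4417 and 3201 RPM in homozygous cells (3.02 ± 0.86, limma adjusted p = 0.000745).

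The miR-17-92 cluster and its paralogs miR-106a-363 and miR-106b-25, which drive proliferation, were counted by arm and role, beside 76.3% higher among all miRNAs, 96.3% among 3p arms and 53.3% among 5p arms. Their 3p passengers were higher in 8 of 8, with a median of 7.07, and all 8 stayed higher under every scaling. miR-18a-3p stood at 39803 and 35831 RPM in homozygous and at 99.3 and 377 RPM in null cells (7.60), miR-17-3p at 32083 and 27411 against 119 and 357 RPM (7.16), and miR-20a-3p at 31577 and 28576 against 155 and 367.3 RPM (6.97). The 3p guides were higher in 6 of 6, with a median of 4.95. Among them miR-19a-3p rose by 6.51, miR-19b-3p by 4.91 and miR-92a-3p by 3.57.

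The 5p guides of these clusters were higher in 6 of 8, near the 76.3% of all miRNAs, with a median of 2.15 against 2.20 over all 5p arms, and all 8 were called lower on the scale of own miRNA reads. The 5p passengers were higher in 2 of 7, with a median of 0.76. The miR-17, miR-18a and miR-20a hairpins moved toward 3p by 5.03, 5.56 and 5.74. miR-20a-5p gained less than some of its paralogs: its ratio to miR-93-5p fell by 1.43 (SE 0.32, limma adjusted p = 0.0121), and the ratio of miR-17-5p to miR-20a-5p rose by 0.91 (SE 0.21, limma adjusted p = 0.0137). Its ratio to miR-20b-5p did not pass (-0.31, 95% interval -0.78 to 0.17).

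In the chromosome 19 cluster, expressed in placenta and in pluripotent cells, 31 of 31 3p arms were higher, with a median of 5.19, and 13 of 29 5p arms, with a median of 1.92. Over all miRNAs, 96.3% of 3p arms and 53.3% of 5p arms were higher. let-7a-3p, the passenger of its hairpin, rose from 16.4 and 6.66 RPM in null to 444 and 394 RPM in homozygous cells (5.18 ± 1.00, limma adjusted p = 7.54e-07), and the let-7a hairpin moved toward 3p by 4.19. In the miR-15/16 family 5 of 7 5p arms and 7 of 7 3p arms were higher, and in the miR-30 family 4 of 5 and 6 of 6. Among smaller families, 6 of 7 arms of miR-130, miR-301 and miR-454 were higher, 6 of 7 of miR-200 and miR-141, 6 of 6 of the miR-183 cluster, 6 of 8 of miR-181, 6 of 8 of miR-26 and miR-101, 2 of 3 of miR-103a and miR-107, 5 of 5 of miR-135 and 4 of 6 of miR-34. Of all miRNAs 76.3% were higher, and these lists are described by their counts alone. On the scale of own miRNA reads, the miR-130 list had 6 higher and 1 lower, and the miR-200 list 5 and 1. The miR-183 cluster had 2 and 3, miR-181 had 4 and 2, and miR-26 with miR-101 had 1 and 4. There miR-103a with miR-107 had 0 and 1, miR-135 had 3 and 0, and miR-34 had 3 and 2. Of chromosome 19 arms, 24 3p and 3 5p arms were higher, and 0 and 17 lower. For miR-15/16 they were 6 and 2 higher, 0 and 4 lower, and for miR-30 6 and 3 higher, 0 and 2 lower.

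The 10 widest gaps above the null were in 3p arms. miR-339-3p stood at 2839.7 and 2611 RPM in homozygous and at 3.57 and 10.6 RPM in null cells (8.54 ± 0.95, limma adjusted p = 6.47e-17), and miR-363-3p, a guide, at 14654 and 11753 against 28.6 and 69.2 RPM (8.17). miR-519e-3p stood at 5602 and 4729 against 12.9 and 22.6 RPM (8.15), and miR-106a-3p at 6820.2 and 5285 against 13.6 and 45.3 RPM (7.85). miR-125a-3p (8.20), miR-1277-3p (8.14), miR-340-3p (8.02), miR-9-3p (7.97), miR-15a-3p (7.96) and miR-34c-3p (7.87) complete the 10. The last group rests on few null reads, down to 0 and 1 for miR-125a-3p and 2 and 0 for miR-34c-3p, so the size of those differences depends on the 1 RPM added before the logarithm. In both null libraries 33 miRNAs had no read, 24 of them 3p arms and 3 of them 5p arms. The most abundant of these, miR-651-3p, stood at 204 and 184 RPM in the homozygous libraries, at least 63.3-fold above the level of 3 reads per null library.

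Of the 300 3p arms, 11 were not higher than in the null. miR-222-3p, which represses the cell cycle inhibitor p27, had 609 and 459 RPM in homozygous against 150.1 and 285 RPM in null cells (1.35 ± 0.91, limma adjusted p = 0.158), beside 9700.3 and 10415 RPM in wild-type cells, and was the only one of the 11 to reach 500 RPM in wild-type cells. miR-10395-3p, miR-4485-3p and miR-664b-3p were lower, and the others (miR-328-3p, miR-744-3p, miR-3940-3p, miR-6516-3p, miR-6775-3p, miR-664a-3p and miR-10399-3p) were at low levels. Of the 109 3p arms that reached 500 RPM in wild-type cells, 108 were higher.

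Among the 12 miRNAs lower in homozygous than in null cells, several carry names that are known to overlap other small RNAs. miR-1291, which overlaps the snoRNA SNORA34, had 24.4 and 28.9 RPM in homozygous and 247 and 824 RPM in null cells (-4.04 ± 1.01, limma adjusted p = 0.000119). miR-1248, which overlaps SNORA81, had 165 and 369 against 917 and 3886 RPM (-2.93), and miR-4485-3p, which matches mitochondrial ribosomal RNA, 21.2 and 14.4 against 72.9 and 326 RPM (-3.07). miR-10395-3p (-3.07), miR-664b-3p (-2.65), miR-222-5p (-2.47), miR-3609 (-2.39) and miR-10395-5p (-2.12) were lower as well. In a list of 13 names that overlap other small RNAs, 3 were higher and 5 lower, beside 76.3% and 2.02% of all miRNAs. The list was chosen with earlier results of these data known. Its members summed to 1147 and 1169 RPM in homozygous and to 1806 and 6050 RPM in null cells. Null replicate 2 had the higher sum, and without that library 2 miRNAs were called lower in place of 12, and 4 without either homozygous library. miR-12136, the fourth most abundant entry of the null, had 4906 and 10936 RPM there and 1808 and 2892 RPM in homozygous cells (-1.68 ± 0.85, limma adjusted p = 0.0618).

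miR-451a, which Dicer does not cut, had 1055 and 855 RPM in homozygous and 144 and 110.5 RPM in null cells (2.90 ± 0.94, limma adjusted p = 0.00309), and 280.3 and 457 RPM in wild-type cells. On the scale of own miRNA reads it was lower than in the null (-1.05). Of the measured miRNAs that bypass Drosha but need Dicer, both mirtrons and 3 of 5 arms of miR-320 and miR-484 were higher, beside 76.3% of all miRNAs. miR-320a-3p had 3196 and 2461 against 57.2 and 178 RPM (4.78 ± 0.89), at 39.0% of its wild-type mean, and miR-484 had 157 and 139 against 17.9 and 47.9 RPM (2.29 ± 0.98, limma adjusted p = 0.025), at 5.29% of it.

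The 3p arms of miR-302 and miR-367, which mark the labelled cell type, were among the most abundant miRNAs of both genotypes. Markers of other cells were counted beside the 76.3% of all miRNAs that were higher. Of 12 miRNAs enriched in fibroblasts or feeder layers 9 were higher in homozygous cells, with sums of 30408 and 24396 RPM against 2214 and 3696 RPM in null cells, and 48856 and 60773 RPM in the wild type. Of 9 neural miRNAs 5 were higher (31575 and 26109 against 826 and 1276 RPM), of 8 of mesoderm and endoderm 7 (1017 and 874 against 20.7 and 46.6 RPM), and of 5 linked to p53 2 (741 and 517 against 105 and 194.3 RPM). In the null libraries miR-143-3p and miR-194-3p of the mesoderm and endoderm list had no read. Every marker of these lists had reads in at least 1 homozygous library, and the part of other cells in the comparison was not tested.

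Set beside wild-type cells on the deposited scale, the null held a few percent of both arms. All miRNA reads equalled 0.118 and 0.183 times the denominator in null libraries and 2.09 and 2.33 times in wild-type libraries. The percentages thus depend on the scaling and were not computed on own miRNA reads. For arms whose wild-type mean reached 500 RPM, the null held a median of 2.53% of the wild-type level in 109 5p arms and 2.62% in 109 3p arms. Homozygous cells held a median of 13.2% (quartiles 6.19% and 39.0%) in the 5p arms and 112% in the 3p arms. Of these 109 5p arms, 69 were called higher than the null, 24 reached 50% of the wild-type level or more, 8 reached 100%, and 47 stayed under 10%. Hemizygous cells, with 1 mutant allele, held medians of 9.44% and 76.2%, but their libraries lie 1.94 apart on the log2 scale. Comparisons of these percentages share the wild-type libraries and are given without a test.

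**Figure D5:**
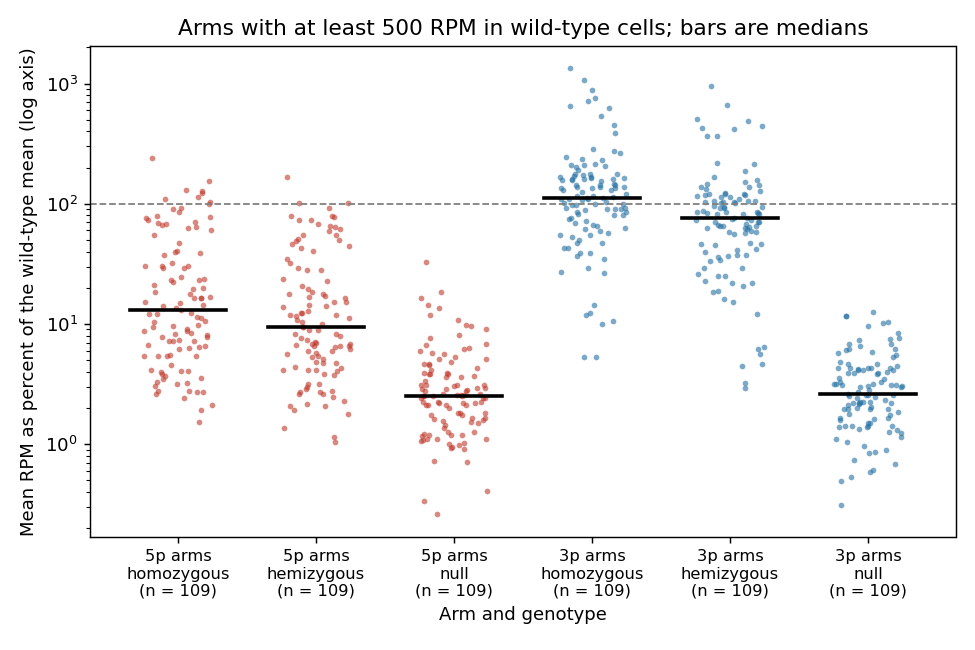
Level of each arm that reached 500 RPM in wild-type cells as a percent of its wild-type mean (log axis), for 109 5p arms (red) and 109 3p arms (blue) in homozygous, hemizygous and null cells. Levels are on the deposited scale. Black bars are medians, at 13.2% and 2.53% for 5p arms and 112% and 2.62% for 3p arms in homozygous and null cells, and the dashed line marks the wild-type level.

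Other features of the 5p arms were read from their sequences. Among those with a RefSeq sequence, 55 of 110 called higher began with U and 30 of 93 not called higher (32.3%), against 41.9% of all 203. The median GC content was 45.5% and 50%. The median length was 22 bases in both sets and the median annotated loop between the arms 16 bases in both. Arms of a family share sequence, so these are descriptions of the arms and not of independent cases, and no test was run.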

How the data were processed

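Per the labels' protocols, total RNA received QIAseq spike-ins, was ligated to linkers at both ends, size-selected, amplified and sequenced as single-end reads. The submitters' processing notes name cutadapt, limma and hg38; no source used here names the aligner, the counting or the scaling. The deposited values are log2 RPM with 0.5 of a read added, read from the values: the authors' log2 values return whole reads in every library within 7.31e-09. The tests had been planned for RPM, so the log2 values were turned back to RPM.

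Homozygous and null libraries were compared on log2(RPM + 1) by limma 3.58.1 (R 4.3.3), fitting the 4 group means of all 8 libraries at once, with trended variances and two-sided Benjamini-Hochberg adjusted p under 0.05; a difference on this scale understates the change of low miRNAs. All 594 miRNAs passed the filter of 5 RPM in 2 libraries, and the scripts were tested on simulated data. The errors pool all 8 libraries because 2 against 2 leave little to estimate a spread from. The fitted prior degrees of freedom were infinite for single miRNAs, which gives miRNAs of equal level an equal spread. Ratios of 3p to 5p, and of 5p arms sharing a seed, were tested by the same kind of fit. Each kind of ratio had its own estimate of the spread, with a finite prior, so p values are not alike across the kinds of test. Replicate pairs differed by more than counting error, with chi-square over degrees of freedom of 10.5 in the homozygous and 23.4 in the null pair, and limits on a count of 0 cover counting error only.

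Alternatives were 4 other scalings (own miRNA reads, median ratio, upper quartile, and the names overlapping other small RNAs with miR-451a), pseudocounts of 0.5 and 5 RPM, no filter and 50 RPM, fits of fewer libraries, no trend, voom, a replicate block, stricter thresholds and leaving out each library. The seed pairs were added after seeing the data. The members and lists were chosen with earlier results of these data known. Named were up to 10 miRNAs or hairpins each with the largest rises, falls and arm shifts, at least 50 RPM in 1 group, and the most abundant of each genotype, with up to 4 members per list. Arms near the null, above it under every scaling or compared by seed, miR-222-3p and miR-651-3p were named after their values were seen. Sequences are from RefSeq (GRCh38.p14) and gene overlaps from GENCODE v29.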

Additional observations from a re-analysis of the deposited data

How the results depend on the processing

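Calls of single arms depended on the scaling, while the count of hairpins called toward 3p stayed within 1.5 times under the alternatives run. With own miRNA reads, median-ratio and upper-quartile scaling, in this order, 39.2%, 37.2% and 42.6% of miRNAs were higher and 29.5%, 30.6% and 28.3% lower, 11%, 9.25% and 12.8% of 5p arms were higher and 59.9%, 62.1% and 58.6% lower, and 5%, 5.33% and 4% of 3p arms were lower. The first pair of these scalings left 63.7% and 61% of 3p arms higher. Hairpins called toward 5p made up 0.538% under each of the 3 scalings, a pseudocount of 0.5 RPM and an adjusted p under 0.01, and 4.84% under a pseudocount of 5 RPM. miRNAs and 5p arms called lower made up 3.54% and 3.52% in the fit of the 4 compared libraries, 3.20% and 3.52% without the hemizygous libraries, and 1.18% and 0.881% at an adjusted p under 0.01. With a filter of 50 RPM 1.01% of 5p arms were lower. At an adjusted p under 0.01, 21.9% of seed pairs were called. Without the 5 most abundant miRNAs the 5p share differed by -36.8 points. The cause of these shifts was not tested. voom was not run on ratios of arms.

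Leaving out each library in turn gave 0.337% to 2.19% of miRNAs lower, 33.9% to 50.7% of 5p arms called, 33.5% to 50.7% higher and 0% to 2.20% lower. It gave 0% to 0.667% of 3p arms lower, 0.538% to 1.61% of hairpins called toward 5p, 21% to 52.4% of seed pairs called, and a 5p share difference of -17.3 to -14.6 points. In these fits the lone library is assumed to vary like the other groups.

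Same-numbered homozygous and null libraries deviated from their group means together at r = 0.0975. This value cannot settle whether they share a preparation, because a shift common to all miRNAs leaves it unchanged. With a replicate block 475 miRNAs were called, 461 higher and 14 lower, against 465, 453 and 12, and 156 hairpins against 151. The block moved none of the counts given by more than 1.5 times.

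The log2 difference of these miRNAs turned from positive to negative under own miRNA reads, median-ratio and upper-quartile scaling, in this order: let-7a-5p (-2.95, -3.09 and -2.76), miR-125b-5p (-3.48, -3.62 and -3.29), miR-15a-5p (-2.95, -3.09 and -2.76), miR-16-5p (-1.22, -1.35 and -1.02), miR-17-5p (-1.83, -1.97 and -1.64), miR-20a-5p (-2.74, -2.88 and -2.54), miR-21-5p (-1.56, -1.70 and -1.37), miR-222-3p (-2.61, -2.74 and -2.41), miR-296-5p (-3.49, -3.63 and -3.30), miR-302a-5p (-0.85, -0.98 and -0.65), miR-302b-3p (-0.53, -0.67 and -0.34), miR-30a-5p (-1.25, -1.39 and -1.06), miR-30c-5p (-2.15, -2.29 and -1.96), miR-34a-5p (-3.75, -3.89 and -3.56), miR-34b-5p (-0.45, -0.59 and -0.26), miR-367-5p (-2.66, -2.80 and -2.47), miR-371a-5p (-0.94, -1.08 and -0.74), miR-451a (-1.05, -1.19 and -0.86), miR-484 (-1.61, -1.75 and -1.42), miR-525-5p (-3.497, -3.63 and -3.31) and miR-92a-3p (-0.40, -0.54 and -0.20).

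Under the first pair of these scalings alone, miR-302a-3p (-0.043 and -0.18), miR-302c-5p (-0.076 and -0.21), miR-33a-5p (-0.021 and -0.16) and miR-367-3p (-0.0080 and -0.14) turned negative, and under median-ratio scaling alone miR-15b-5p (-0.021).

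On the scale of names overlapping other small RNAs miR-302d-5p (0.14) and miR-31-5p (0.51) turned positive. The miR-653 ratio changed sign under own miRNA reads (-0.0029), median-ratio (-0.0059) and upper-quartile scaling (-0.0031), and the miR-30b ratio at a pseudocount of 5 RPM (-0.94). The sign also changed within the range over single libraries left out for miR-302d-5p (-1.53 to 0.37), miR-34a-5p (-0.34 to 0.70), miR-125b-5p (-0.013 to 0.92), miR-525-5p (-0.25 to 1.12), the ratios of miR-30b (-0.496 to 1.03) and miR-653 (-0.22 to 0.497), and the ratio of miR-302b-5p to miR-302d-5p (-1.02 to 0.21). Beyond the change of scale itself, the cause was not tested. Depth limits the null most, where a single read is worth 0.715 or 1.33 RPM.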

Other observations

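The arm balance that remained without Dicer followed that of wild-type cells across hairpins, with median log2 ratios of -1.32 in null and -1.31 in wild-type cells. Single hairpins could differ by more. Where an arm has few null reads, the added 1 RPM draws the ratio toward 0. Across the 186 hairpins, which are not independent replicates and share libraries and depth within a genotype, the mean log2 ratio of 3p to 5p in null cells correlated with that in wild-type cells at r = 0.928 (Spearman's rho 0.923), with a median absolute difference of 1.16. The ratio in homozygous cells correlated with that in wild-type cells at r = 0.859 (rho 0.83), with a median absolute difference of 3.33. Homozygous and hemizygous ratios correlated at r = 0.991 (rho 0.991), with a median absolute difference of 0.35, although the hemizygous libraries differ in level. These correlations describe the libraries and carry no p, and where the miRNA reads of the null libraries come from was not tested.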
